A study of Mus musculus with 6 samples.

Results

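Fatty acid uptake, binding and activation in peripheral nerve was followed through 10 genes, picked by symbol for their roles, with earlier results of these data known. They were Cd36, Slc27a1 and Slc27a4 for uptake, Fabp3, Fabp5 and Fabp7 for binding, and Acsl1, Acsl3, Acsl4 and Acsbg1 for activation. All 10 were among the 24015 genes counted, and 7 of them passed the filter on low counts, as did 11371 genes in all. RNA was sequenced from whole sciatic nerves of mice at postnatal day 14, and 3 control libraries were compared with 3 libraries from mice lacking the E3 ubiquitin ligase Rnf40 in Schwann cells, to see how the nerve's transcripts depend on the enzyme. Each library was made from a pool of 3 nerves, and mice of both sexes were used. Controls were Rnf40 fl/fl without Cre, and knockouts, named Rnf40ΔSC, were Dhh::Cre, Rnf40 fl/fl. Both carried the floxed allele, with a mixed 129SvJ/C57Bl/6J background per the labels and C3H and C57Bl/6J per the study's methods. The study chose Dhh::Cre for its restriction to Schwann cells, and reports that other cells of embryonic nerve still held Rnf40. Here Rnf40 was not measured separately in the endothelial cells, fibroblasts, fat, macrophages and muscle that a dissected nerve can hold.

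Long-chain fatty acids reach a cell from albumin or from lipoproteins, cross the membrane with the help of CD36 and fatty acid transport proteins, and are carried through the cytosol by small fatty acid binding proteins. Acyl-CoA synthetases then join them to coenzyme A, the step that traps them inside the cell and commits them to phospholipids, storage or oxidation. A myelinating Schwann cell builds a large membrane and draws on both its own fatty acid synthesis and fatty acids from outside.

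Rnf40 itself was at 127, 123 and 138 normalized counts in controls 1 to 3 and at 87.7, 87.9 and 91.5 in Rnf40ΔSC 1 to 3. Every knockout library lay below every control, in the direction the labels give. Its log2 fold change was -0.54 (SE 0.138, adjusted p = 0.00242, from the quasi-likelihood test of edgeR, p-values adjusted after Benjamini and Hochberg), and with libraries scaled to total counts it was -0.27 and did not pass (adjusted p = 0.120, edgeR). Counts cover the whole gene, including exons outside the deleted stretch and cells without Cre. Normalized counts are counts divided by each library's TMM effective size and brought back to the geometric mean of the 6 sizes. Totals ran from 1317167 counts in control 1 to 2468765 in control 3, and 1 count in a library was worth between 0.776 and 1.54 normalized counts.

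The libraries differed in muscle RNA. Summed over 15 skeletal muscle markers, controls 1 to 3 held 9640, 7379 and 5433 normalized counts and Rnf40ΔSC 1 to 3 held 220, 563 and 7034. By this sum Rnf40ΔSC 3 lay within the control range, while Rnf40ΔSC 1 and 2 lay far below every control. Single markers differed. Rnf40ΔSC 3 lay above every control for some, such as Myh1 (304 against 140, 118 and 95.4) and Myh2 (274 against 7.72, 71.0 and 22.6). It lay below every control for Myh4, Myl1 and Pvalb. The most abundant of the 15 markers was Myh4, a fast myosin heavy chain, at 2641, 1755 and 1314 in controls and 46.7, 53.9 and 1142 in knockouts. Values of Rnf40ΔSC 3 are therefore given apart wherever this library stood out.

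Of the 7 genes tested, 4 were lower in Rnf40ΔSC nerves (Cd36, Slc27a4, Acsl1 and Acsl3), against 16.2% of all genes tested, and 1 was higher (Acsbg1), against 15.4%. Since the genes were chosen with earlier results of these data known, these counts are not independent support. The test was passed at an adjusted p of at most 0.05, and where a call is said below to be lost, this test alone is meant. With a log2 fold change of at least 0.8 in either direction and a base mean of at least 20 also asked for, 2 were called lower (Acsl1 and Acsl3), against 4.99% of all genes, and 1 higher (Acsbg1), against 3.65%. Groups did not overlap for 4 genes that were lower and 1 that was higher, against 21.6% and 22% of all genes. The median log2 fold change of the 7 was -0.47, beside -0.0026 for all genes tested, and -0.21 with 3 lower and 2 higher when libraries were scaled to total counts, which moves the median of all genes by 0.27 and gives 880 lower and 3766 higher of all 11371. Slc27a1 and Acsl4 did not pass the test, and Fabp3, Fabp5 and Fabp7 had too few counts to be tested. In RNA of a whole nerve, fewer cells of a type and less RNA per cell cannot be told apart.

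**Figure D1:**
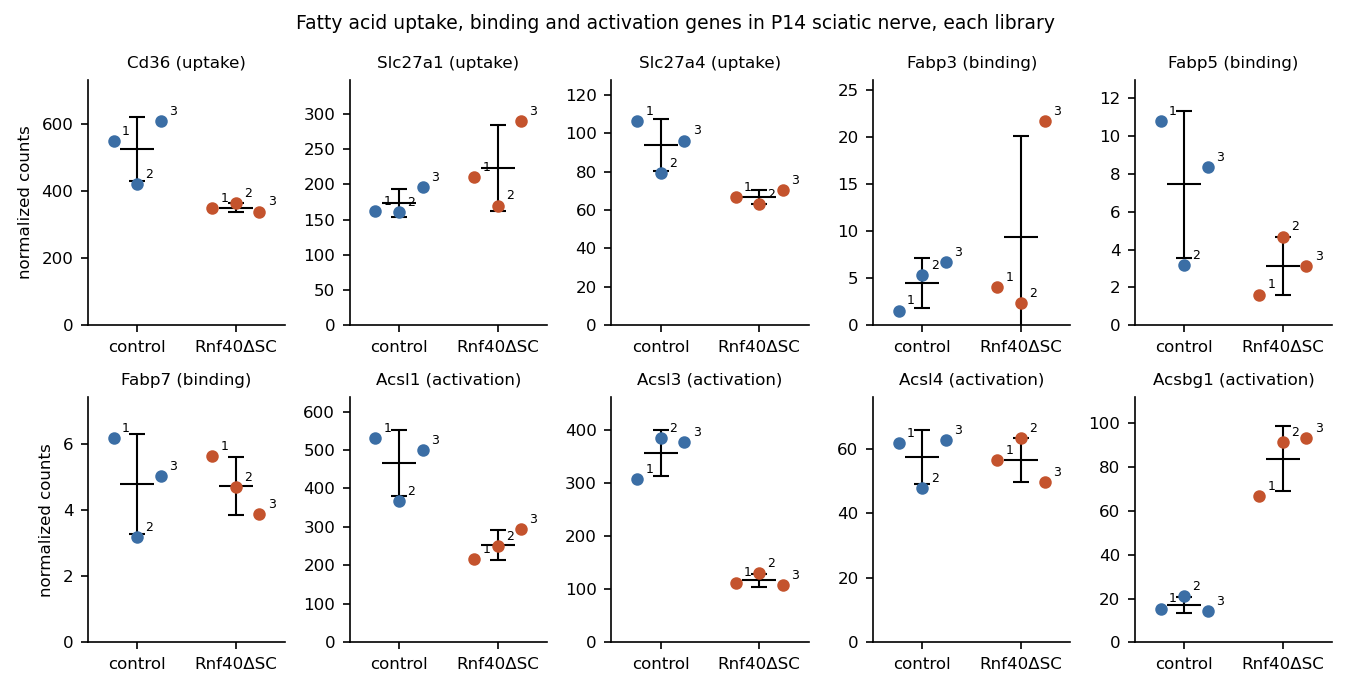
Normalized counts of the 10 genes in each library, 1 panel per gene with its own axis from 0. Points are libraries with their replicate number, and bars show mean and SD (n = 3), with an SD reaching below 0 ended at 0. Acsl3 lay between 307 and 384 in controls and between 108 and 130 in Rnf40ΔSC nerves, and Acsbg1 between 14.2 and 21.2 and between 66.8 and 93.1.

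On a scale that allows genes to be compared, normalized counts per kb of the longest coding transcript, Cd36 had the highest mean in controls with 148 ± 26.8 (SD, n = 3). Acsl1 with 120 ± 22.3 and Acsl3 with 112 ± 13.4 came next, and the libraries of these 3 genes overlapped, followed by Slc27a1 with 61.9 ± 7.08 and Slc27a4 with 23.2 ± 3.37. Acsl4 with 10.9 ± 1.60 came after these and overlapped Fabp5, while Fabp5, Acsbg1, Fabp3 and Fabp7 had means between 5.44 and 7.55 and overlapped each other. In Rnf40ΔSC nerves Cd36 had 98.2 ± 3.51 per kb and overlapped Slc27a1 with 79.9 ± 21.9, ahead of Acsl1 with 65.3 ± 9.98, whose libraries also overlapped those of Slc27a1. Acsl3 followed with 36.6 ± 3.66 and Acsbg1 with 29.1 ± 5.11, which had moved from rank 8 of the 10 to rank 5. Acsl1 and Fabp5 depend on the length used. Over all annotated exons the control level of Acsl1 was 49.3 per kb, below the 61.9 of Slc27a1. That of Fabp5 was 2.09 in place of 7.55, the lowest of the 10 genes.

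Cd36 is a membrane glycoprotein that takes up fatty acids and oxidized lipoproteins, abundant in capillary endothelium, fat and macrophages. It was at 548, 422 and 609 normalized counts in controls and at 349, 363 and 338 in Rnf40ΔSC nerves. The knockouts lay close together and below every control. Its log2 fold change was -0.59 (SE 0.107, adjusted p = 4.43e-05, edgeR), a level 1.51-fold higher in controls, and under total-count scaling it was -0.32 (adjusted p = 0.0207, edgeR). Markers of cell types that carry Cd36 were lower in part. So were those of pericytes and smooth muscle (4 of 7 lower, median -0.55, or 2 lower and -0.28 under total-count scaling). Of 5 perineurial markers tested 4 were lower, with a median of -0.52 (2 lower and -0.25 under total-count scaling). The other 1, Tjp1, the most abundant of them, was higher at 0.47. Beside these counts and the next, 16.2% of all genes tested were lower and 15.4% higher, or 880 and 3766 of 11371 under total-count scaling. Of 10 endothelial markers 7 were lower and none higher, with a median log2 fold change of -0.58 (2 lower and -0.31 under total-count scaling). Their sum was 1642, 1455 and 1652 in controls and 1021, 1012 and 1259 in knockouts. Their most abundant gene, the junction protein Cdh5, went from 524 ± 41.4 to 367 ± 46.4, and did not pass under total-count scaling (adjusted p = 0.0598, edgeR). Of 8 adipocyte markers tested 4 were lower and none higher, with a median of -0.66 (3 lower and -0.39 under total-count scaling) and sums of 719, 532 and 845 against 400, 407 and 371, led by the fat-secreted protease Cfd with 293 ± 81.7 against 152 ± 9.20, which did not pass without Rnf40ΔSC 2 (adjusted p = 0.0614, edgeR) or without Rnf40ΔSC 3 (0.0797, edgeR). Macrophage markers had a median of -0.47, with 4 of 7 lower (-0.21 and 2 lower under total-count scaling), and their sum was 661, 579 and 634 against 422, 405 and 455, led by the receptor Csf1r with 185 ± 31.7 against 118 ± 13.2. The part of these cells in the Cd36 values was not tested, and no defining marker of the 3 lists was at 0.

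Slc27a1 encodes FATP1, a transport protein with acyl-CoA synthetase activity that is abundant in muscle and fat. Its values were 162, 161 and 196 normalized counts in controls and 210, 170 and 290 in Rnf40ΔSC nerves. Rnf40ΔSC 2 lay within the control range, so the groups overlapped, and Rnf40ΔSC 3, the knockout library rich in muscle RNA, was the highest of all 6. Rnf40ΔSC 1, with the lowest sum of muscle markers at 220, also lay above every control. The log2 fold change was 0.37 (95% interval 0.0043 to 0.74) and did not pass the test (adjusted p = 0.118, edgeR). The result turned on single libraries: without Rnf40ΔSC 3 it was 0.14 (adjusted p = 0.409), and without Rnf40ΔSC 2 it was 0.53 and passed (adjusted p = 0.00219). Over all settings tried, the adjusted p by edgeR or DESeq2 ranged from 0.00219 to 0.409. The part of muscle RNA in these values was not tested.

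Slc27a4 encodes FATP4, which works on very long-chain fatty acids at the endoplasmic reticulum and plasma membrane. It was measured at 106, 79.4 and 96.2 normalized counts in controls and at 66.8, 63.3 and 70.6 in knockouts. No knockout library reached the lowest control. The log2 fold change was -0.47 (SE 0.162, adjusted p = 0.0223, edgeR), but this call was lost without control 1 (adjusted p = 0.102), without control 3 (0.0903), without Rnf40ΔSC 1 (0.0681) and without Rnf40ΔSC 2 (0.0621), all by edgeR. Across all settings its adjusted p by edgeR or DESeq2 lay between 0.0155 and 0.328. Its relative Slc27a6, a transport protein best known from heart, was at 20.1, 20.1 and 16.7 in controls and 46.7, 46.9 and 55.8 in knockouts. These groups lay far apart, at 1.41 on the log2 scale (SE 0.240, adjusted p = 1.49e-05, edgeR). Among Slc27a1, Slc27a3, Slc27a4 and Slc27a6, counted per kb, the share of Slc27a4 was 26.9%, 22.7% and 22.9% in controls and 14.6%, 15.5% and 11.6% in knockouts. That of Slc27a6 was 8.26%, 9.39% and 6.48% against 16.6%, 18.8% and 15.0%. Slc27a1 supplied most of this set in every library, between 59.3% and 69.1%.

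**Figure D2:**
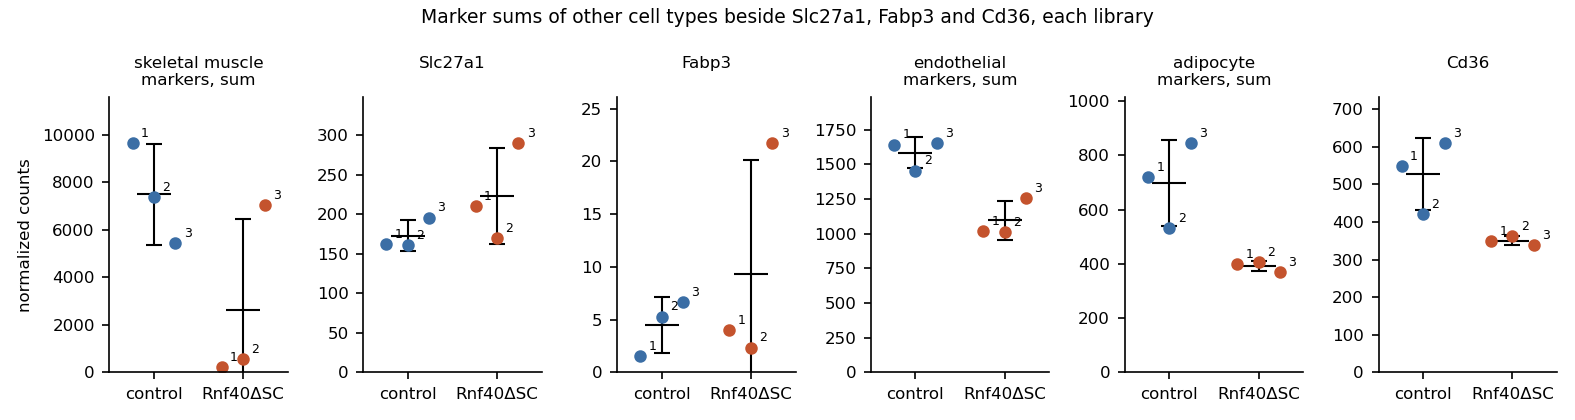
Summed markers of skeletal muscle, endothelium and fat beside Slc27a1, Fabp3 and Cd36, all in normalized counts with axes from 0. Points are libraries with their replicate number, and bars show mean and SD (n = 3), ended at 0. Rnf40ΔSC 3 held 7034 normalized counts of muscle markers, against 220 and 563 in the other knockouts.

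Of the cytosolic binding proteins, Fabp3 is the form of heart and muscle, Fabp5 the epidermal form and Fabp7 the form of brain and of immature glia. Fabp3 had 1, 5 and 8 counts in controls and 5, 2 and 28 in Rnf40ΔSC nerves. The 28 counts came from Rnf40ΔSC 3, and the other 5 libraries held 8 or fewer. Control 1, with 1 count of Fabp3, had the highest sum of muscle markers. The muscle marker Myh2 was at 7.72, 71.0 and 22.6 normalized counts in controls and at 3.22, 35.1 and 274 in knockouts. The part of muscle RNA in the Fabp3 counts was not tested. Fabp5 had 7, 3 and 10 counts against 2, 4 and 4, and Fabp7 had 4, 3 and 6 against 7, 4 and 5. For each of the 3 genes the groups overlapped. At or under a floor of 3 counts were 2 libraries for Fabp3, 2 for Fabp5 and 1 for Fabp7, and none of the 3 genes passed the filter. Fabp3 and Fabp5 also have near copies in the genome: their longest coding transcripts matched 1 and 4 other places of the NCBIM37 assembly at 90% identity or more over at least 50% of their length, up to 99.1% and 98.7% identity. Reads shared with such copies have no unique place, and only uniquely placed reads were counted, so both levels are uncertain. Fabp3 also overlaps exons of Zcchc17 on the other strand, over 81 bases. Fabp7 had no such copy.

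The binding proteins that the nerve did express strongly were relatives. Pmp2, also called FABP8, the fatty acid binding protein of peripheral myelin, was at 3437, 2788 and 2581 normalized counts in controls and at 393, 487 and 320 in Rnf40ΔSC nerves. All knockouts were far below all controls, by a log2 fold change of -2.88 (SE 0.177, adjusted p = 8.43e-06, edgeR). Markers of myelinating Schwann cells were lower for 7 of 8 genes and higher for 1, against 16.2% and 15.4% of all genes, with a median of -1.93. The part of these cells in the Pmp2 values was not tested. Fabp4, the form of fat and of capillary endothelium, was at 1622, 1216 and 2132 against 1440, 1268 and 975. Its groups overlapped, and a log2 fold change of -0.43 (SE 0.278) did not pass the test (adjusted p = 0.330, edgeR). Leaving out single libraries moved it from -0.62 without control 2 (adjusted p = 0.0574, edgeR) to -0.21 without control 3. Per kb, Fabp4 made up 50.1%, 48.1% and 63.6% of the transcripts of Fabp3, Fabp4, Fabp5, Fabp7 and Pmp2 in controls and 88.2%, 84.3% and 85.1% in knockouts. The share of Pmp2 was 49.5%, 51.5% and 36.0% against 11.2%, 15.1% and 13%. In no library did Fabp3, Fabp5 or Fabp7 exceed 1.47% of this set.

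Acsl1 is the synthetase of fat, liver and muscle and sits at the outer mitochondrial membrane and endoplasmic reticulum. It was at 531, 368 and 500 normalized counts in controls and at 217, 251 and 295 in Rnf40ΔSC nerves. The highest knockout, Rnf40ΔSC 3, was below the lowest control, and its sum of muscle markers lay in the control range. The part of muscle RNA in these values was not tested. The log2 fold change was -0.87 (SE 0.133, adjusted p = 5.27e-05, edgeR), or 1.83-fold more in controls. Without control 1 it was -0.78, without Rnf40ΔSC 1 -0.75 and under total-count scaling -0.60, values that pass the test but fall short of the limit on the log2 fold change.

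Acsl3, a synthetase of the endoplasmic reticulum and of lipid droplets, gave the largest fall among the 10 genes. Its values were 307, 384 and 377 normalized counts in controls and 113, 130 and 108 in Rnf40ΔSC nerves. Both groups were tight and widely separated, with 3.09-fold more in controls. The log2 fold change was -1.63 (SE 0.114, adjusted p = 2.89e-14, edgeR), and it ranged from -1.72 to -1.36 over all settings. Acsl3 shares 206 exonic bases with Utp14b on the same strand, a gene with 2, 13 and 21 counts in controls and 15, 14 and 11 in knockouts.

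Acsl4, which prefers arachidonic acid and other long polyunsaturated fatty acids, was at 61.7, 47.7 and 62.7 normalized counts in controls and at 56.3, 63.3 and 49.6 in Rnf40ΔSC nerves. The groups covered nearly the same range. Its log2 fold change was -0.036 with a 95% interval from -0.42 to 0.35 (adjusted p = 0.907, edgeR), so a change by the limit of 0.8 lies outside the interval. The sign turned under total-count scaling, to 0.23, and on leaving out single libraries. Acsl4 is X-linked and the pools differed in sex: control 1 and Rnf40ΔSC 2 had 0 counts of the Y-linked genes Ddx3y, Eif2s3y, Kdm5d and Uty. In these 2 libraries Acsl4 was at 61.7 and 63.3, and in the 4 libraries with Y-linked counts it was at 47.7 and 62.7 in controls and 56.3 and 49.6 in knockouts. With 1 library of each genotype lacking Y-linked counts, the difference was not tested within them.

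Acsbg1, called bubblegum, activates long and very long-chain fatty acids and is best known from brain, adrenal gland and testis. It was at 15.4, 21.2 and 14.2 normalized counts in controls and at 66.8, 91.4 and 93.1 in Rnf40ΔSC nerves. The lowest knockout was above 3 times the highest control. The log2 fold change was 2.29 (SE 0.231, adjusted p = 3.45e-10, edgeR), a 4.91-fold higher level, and it ranged from 2.06 to 2.57 over all settings.

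Seen together, the synthetases Acsl1, Acsl3, Acsl4, Acsl5, Acsl6 and Acsbg1 summed to 273, 247 and 279 normalized counts per kb in controls and to 140, 165 and 166 in Rnf40ΔSC nerves. The sum was lower in every knockout library. Within it, the share of Acsl3 was 35.2%, 48.8% and 42.3% in controls and 25.2%, 24.6% and 20.4% in knockouts. Acsbg1 supplied 1.96%, 2.98% and 1.77% against 16.6%, 19.2% and 19.5%. The share of Acsl1 overlapped between the groups, with 50%, 38.3% and 46.0% against 39.9%, 39.0% and 45.7%. All these shares depend on the lengths used, since Acsl1 had 120 per kb of its transcript in controls but 49.3 per kb of all annotated exons. Acsl5, an isoform of gut and liver, was at 72.5, 48.7 and 47.7 normalized counts in controls and 46.7, 50.4 and 45.0 in knockouts. These groups overlapped, and a difference of -0.22 on the log2 scale did not pass the test (adjusted p = 0.448, edgeR). Without control 1 the difference was -0.034. Acsl6, the neuronal isoform, had at most 5 counts in any library.

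**Figure D3:**
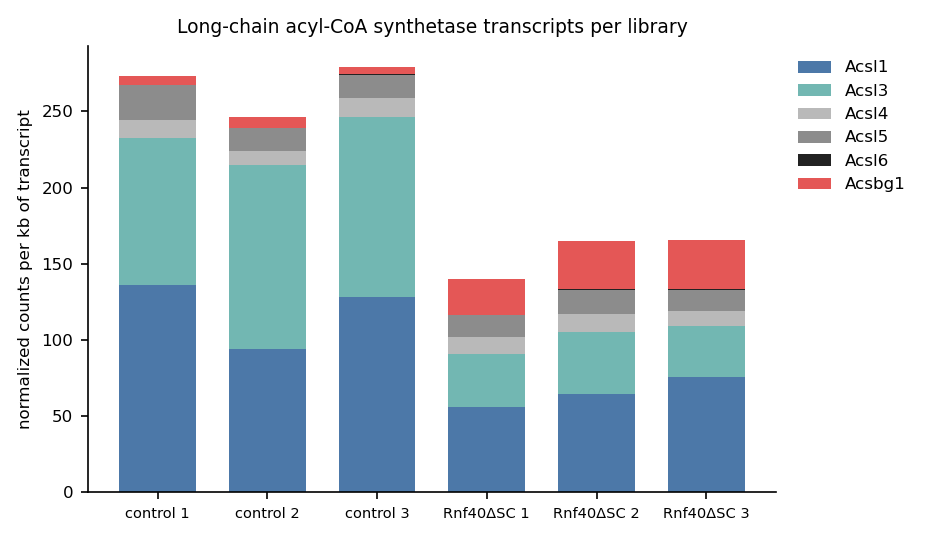
Stacked normalized counts per kb of the longest coding transcript for 6 acyl-CoA synthetase genes in each library, with the axis from 0. The sum was 273, 247 and 279 in controls and 140, 165 and 166 in Rnf40ΔSC nerves, and Acsbg1 took between 16.6% and 19.5% of it in the knockouts.

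**Figure D4:**
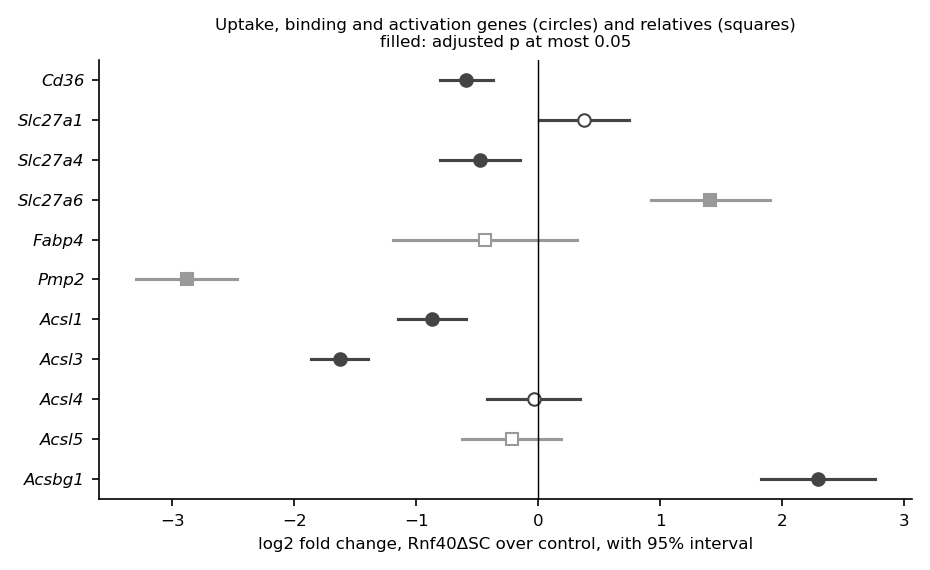
Log2 fold change of Rnf40ΔSC over control with its 95% interval for the 7 genes tested (circles) and 4 relatives (squares). Filled symbols passed the test at an adjusted p of at most 0.05 by edgeR, among them Acsl3 at -1.63, Acsbg1 at 2.29, Pmp2 at -2.88 and Slc27a6 at 1.41.

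Promoters are shown for 4 of the 5 genes that were lower or higher. That of Slc27a4, not shown, holds none of the motifs searched. RefSeq windows from 250 bases before to 50 after a start site (build GRCm38.p6) held 12 promoters of 9 of the 10 genes. Motifs searched on both strands were the E-box CACGTG, the sterol regulatory element TCACNCCAC, the EGR motif GCGNGGGCG, the SOX motif ACAAAG and the nuclear receptor motif AGGTCA, along with AGGTCA repeated in the same direction 1 base apart. Over all 32851 windows their shares were 7.15%, 1.24%, 5.55%, 18.7%, 16.3% and 0.0396%. A match describes letters only. The downstream of 2 Acsl1 windows (chr8:46490716-46491015, plus strand) holds the sterol element on the reverse strand, which lies 76 bases before the start site, in capitals. The Cd36 window (chr5:17835847-17836146, minus strand) holds 2 SOX motifs, 1 of them reversed, and 1 reversed AGGTCA motif, in capitals. The windows of Acsl3 (chr1:78657575-78657874, plus strand) and Acsbg1 (chr9:54661836-54662135, minus strand) hold none of the letters searched. They differ in base composition, with a GC content of 74% for Acsl3 and 47% for Acsbg1, against a median of 52.7% over all windows.
Acsl1: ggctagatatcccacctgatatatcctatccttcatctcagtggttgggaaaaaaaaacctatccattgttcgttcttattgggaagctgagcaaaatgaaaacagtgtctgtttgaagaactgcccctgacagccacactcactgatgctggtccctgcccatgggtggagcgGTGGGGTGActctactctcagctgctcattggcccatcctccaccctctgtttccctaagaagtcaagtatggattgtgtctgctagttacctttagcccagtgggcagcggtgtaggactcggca
Cd36: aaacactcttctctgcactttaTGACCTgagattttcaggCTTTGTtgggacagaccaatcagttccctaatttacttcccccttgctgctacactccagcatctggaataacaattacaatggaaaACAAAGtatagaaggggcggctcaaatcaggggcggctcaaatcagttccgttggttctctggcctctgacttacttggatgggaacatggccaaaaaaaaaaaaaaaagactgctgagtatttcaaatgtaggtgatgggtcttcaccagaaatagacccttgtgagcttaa
Acsl3: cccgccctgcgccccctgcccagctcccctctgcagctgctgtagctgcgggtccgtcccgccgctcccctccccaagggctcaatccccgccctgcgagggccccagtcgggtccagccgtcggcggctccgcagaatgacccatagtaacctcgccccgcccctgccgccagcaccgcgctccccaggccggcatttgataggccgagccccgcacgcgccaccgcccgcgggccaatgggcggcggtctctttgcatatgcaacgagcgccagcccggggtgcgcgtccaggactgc
Acsbg1: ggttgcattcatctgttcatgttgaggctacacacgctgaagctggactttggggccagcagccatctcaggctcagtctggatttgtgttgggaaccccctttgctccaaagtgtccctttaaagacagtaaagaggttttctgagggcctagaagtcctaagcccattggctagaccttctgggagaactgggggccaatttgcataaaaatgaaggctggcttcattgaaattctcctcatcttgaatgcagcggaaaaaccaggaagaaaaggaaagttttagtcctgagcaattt

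Of the other members of the same families, 7 of 21 were tested. Of these, 1 was lower (Pmp2) and 1 higher (Slc27a6), against 16.2% and 15.4% of all genes. Their median log2 fold change was -0.0057, or 0.26 under total-count scaling. Acyl-CoA binding proteins and thioesterases hold activated fatty acids in the cytosol or split them again. Of 13 tested, 1 was lower and 2 were higher, against 16.2% and 15.4% of all genes, with a median of -0.012. Total-count scaling gave 1 lower, 4 higher and a median of 0.26, beside 880 lower and 3766 higher of all 11371 genes. The acyl-CoA binding protein Dbi had 659 ± 65.8 normalized counts in controls and 448 ± 85.6 in Rnf40ΔSC nerves. The thioesterase Them5 rose from 13.7 ± 3.49 to 67.8 ± 9.59, a log2 fold change of 2.25 (adjusted p = 2.27e-09, edgeR). Acot2, a thioesterase of mitochondria, rose from 29.6 ± 6.30 to 51.5 ± 12.3, a call that was lost without control 3 (adjusted p = 0.102, edgeR), without Rnf40ΔSC 2 (0.0562, edgeR) and by DESeq2 (0.0703 without and 0.0680 with a fold-change prior).

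Genes that free fatty acids from triglycerides and lipoproteins were lower or did not pass the test: 5 of 11 tested were lower, against 16.2% of all genes, and none higher, with a median of -0.63, or -0.37 under total-count scaling. The lysosomal lipase Lipa went from 443 ± 46.2 to 167 ± 16.4 normalized counts. The lipase activator Abhd5 was at -0.99 on the log2 scale, the hormone-sensitive lipase Lipe at -0.98 and the lysophospholipid carrier Mfsd2a at -0.94. Lipoprotein lipase Lpl, named after its values were seen, completes the 5 with 748 ± 135 against 475 ± 9.49. Lipe is also in the adipocyte list, where 4 of 8 tested were lower, against 16.2% of all genes, and none higher, with a median of -0.66. The part of fat cells in these values was not tested. In the lipid droplet list 2 of 8 tested were lower, against 16.2% of all genes, and none higher. The 2 were the droplet coat proteins Plin3 at -0.74 and Plin4 at -0.67. The median of this list was -0.43, or -0.17 under total-count scaling.

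Synthesis of fatty acids inside the cell had the median farthest from 0 among the 8 lists of fatty acid metabolism, and differences between lists were not tested. Of 16 genes tested 12 were lower, against 16.2% of all genes, and none higher, in a list also chosen with earlier results known. Their median was -1.34, with 11 lower and -1.07 under total-count scaling. The elongase Elovl6 was at -2.12, the fatty acid synthase Fasn at -2.09, the desaturase Fads2 at -1.76 and the elongase Elovl1 at -1.76. Acsl3 at -1.63 lay below this median, while Acsl1 at -0.87, Cd36 at -0.59 and Slc27a4 at -0.47 lay above it. For oxidation 7 of 26 tested were lower and 3 higher, against 16.2% and 15.4% of all genes, with a median of -0.21. Total-count scaling gave 0 lower and 6 higher with a median of 0.059, beside 880 lower and 3766 higher of all 11371 genes. Cpt1a, which makes acyl-carnitine from the acyl-CoA that synthetases supply, was higher with 165 ± 25.7 against 253 ± 24.7 normalized counts. Its partner Cpt2 was lower at -0.73, a call that was lost under total-count scaling (adjusted p = 0.0725, edgeR) and by DESeq2 (0.0700 without and 0.0680 with a fold-change prior). The peroxisomal transporter Abcd2 was at -0.71, lost under total-count scaling (adjusted p = 0.0624, edgeR). Cpt1c was at -0.63, lost without control 1 (adjusted p = 0.134, edgeR), without Rnf40ΔSC 1 (0.0871, edgeR), under total-count scaling (0.185, edgeR) and by DESeq2 (0.138 and 0.135).

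Among 11 nuclear regulators of fatty acid genes 3 were lower and 1 higher, against 16.2% and 15.4% of all genes, with a median of -0.060. Total-count scaling gave 2 lower, 3 higher and a median of 0.21, beside 880 lower and 3766 higher of all 11371 genes. The retinoid receptor Rxrg had 18, 23 and 34 counts in controls and 4, 1 and 5 in Rnf40ΔSC nerves. Pparg, the regulator of fat cells, was at -1.39, and the coactivator Ppargc1a was higher at 0.83. Srebf2 was at -0.44, and its groups overlapped, with Rnf40ΔSC 3 at 278 normalized counts, within the control range. Its call was lost without control 2 (adjusted p = 0.118), control 3 (0.107), Rnf40ΔSC 1 (0.106) or Rnf40ΔSC 2 (0.0656), all by edgeR. Without Rnf40ΔSC 2 the value was -0.29. The call was also lost under total-count scaling (-0.17, adjusted p = 0.363, edgeR). Without Rnf40ΔSC 3 it was -0.65 and passed (adjusted p = 1.11e-05, edgeR).

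**Figure D5:**
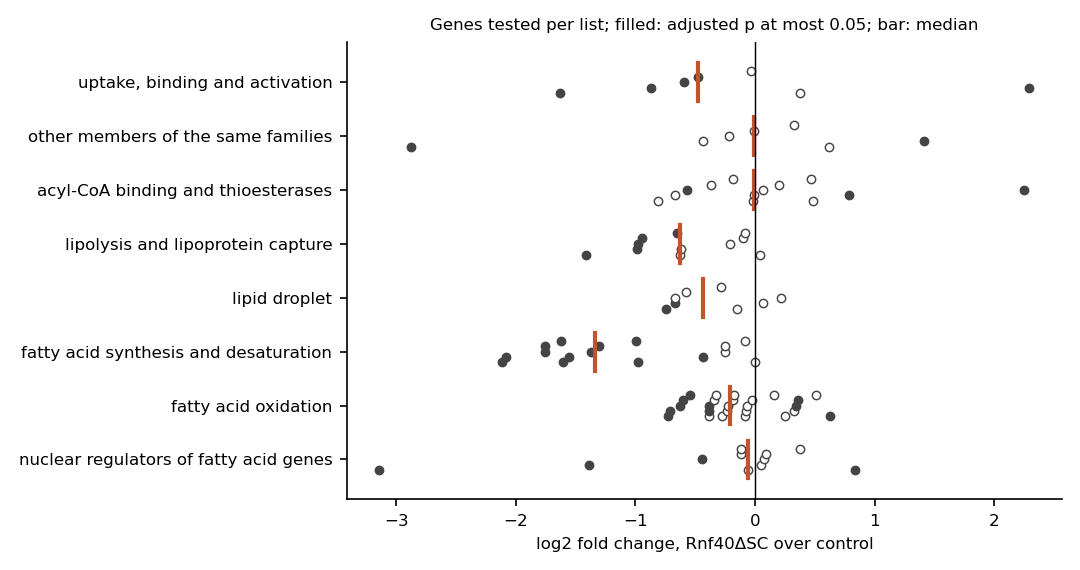
Log2 fold change of Rnf40ΔSC over control for each gene tested in 8 lists of fatty acid metabolism. Each point is a gene, filled where the adjusted p was at most 0.05 by edgeR, and each bar is the list's median, -0.47 for uptake, binding and activation and -1.34 for synthesis and desaturation.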

How the data were processed

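The deposited files hold counts per gene, made by the authors from uniquely mapped reads with TopHat and HTSeq on mm9, per the study's methods. The submitters' processing notes also name Bowtie2 and mm10. The labels give the NEB Next Ultra kit and the methods NEXTFLEX Rapid Directional. Annotation and strand setting are not given in the sources used here. Counts were tested with edgeR 4.0.16 in R 4.3.3 (TMM scaling, filterByExpr, robust quasi-likelihood fit with genotype as its term, Benjamini-Hochberg adjustment over all 11371 genes tested), after a check on simulated data. Alternatives were DESeq2 1.42.0, RLE and total-count scaling, other filters and call limits, a replicate block and leaving out each library. The p-values measure the spread between pools of 3 nerves. The floor of 3 counts covers counting error only.

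Named were the 10 genes, Rnf40, Fabp4, Pmp2, Acsl5 and Acsl6, up to 4 genes per pathway list with the largest absolute log2 fold change among those that passed, and the most abundant and defining genes of marker lists. Members and lists were chosen with earlier results of these data known. Lengths, overlaps and near copies (blastn 2.17.0) come from GENCODE vM1 on NCBIM37, which is mm9.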

Additional observations from a re-analysis of the deposited data

How the results depend on the processing

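Acsl1, Acsl3, Acsbg1, Cd36 and Pmp2 kept their direction and passed the test under all 13 alternatives. Cd36 did not reach the limit on the log2 fold change. Acsl1 fell short of it under total-count scaling, without control 1 and without Rnf40ΔSC 1. Of 577 values over 48 named genes, 537 kept direction and side of the threshold on the adjusted p, 30 no longer passed the test, 5 newly passed it and 5 turned sign. Total-count scaling, which moves the median of all genes by 0.27, gave 261 genes lower and 1008 higher, so that 20.6% of calls were lower in place of 57.7%, and called 1 of the 10 genes lower (Acsl3). There Acsl4 turned to 0.23 and Acsl5 to 0.051, Slc27a4 was at -0.21 (adjusted p = 0.328) and Rnf40 at -0.27 (adjusted p = 0.120), all by edgeR. With no minimum log2 fold change 1733 genes were lower, 1543 higher and 4 of the 10 lower, and with no minimum base mean 628 were higher. By DESeq2, Slc27a4 had an adjusted p of 0.138 without and 0.135 with a fold-change prior. Slc27a1 passed by edgeR under total counts (adjusted p = 0.0133) and without the filter (0.00656). Leaving out each library in turn gave between 548 and 697 genes lower, between 371 and 469 higher, 1 to 2 of the 10 lower (Acsl3 alone without control 1 or Rnf40ΔSC 1) and 1 higher. Acsl4 then ranged from -0.16 to 0.059, with 0.0042 without control 1, 0.052 without control 3 and 0.059 without Rnf40ΔSC 3. In the replicate block fit 566 genes were lower, 408 higher, 2 of the 10 lower and 1 higher, and Slc27a1 passed (0.36, adjusted p = 0.0165, edgeR). Deviations of same-numbered libraries correlated at -0.095, -0.015 and -0.062, and those of differently numbered libraries between -0.031 and 0.10. The numbers thus gave no sign of pairing, but with 3 libraries per genotype this check cannot exclude one. Causes were not tested. Fabp3, Fabp5, Fabp7 and Acsl6 were fitted only without the filter and by DESeq2.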

Other observations

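Cell types of the nerve, given for scale beside the genes of fatty acid handling, moved as follows. Of all 11371 genes tested 16.2% were lower and 15.4% higher, or 880 lower and 3766 higher under total-count scaling. Markers of myelinating Schwann cells had a median log2 fold change of -1.93, with 7 of 8 genes lower and 1 higher. Total-count scaling gave 7 lower, 1 higher and -1.66. Their sum went from a mean of 275029 normalized counts in controls to 68901 in Rnf40ΔSC nerves. Schwann cell lineage markers had a median of -0.68, with 5 of 7 lower and 1 higher, or -0.41, 5 lower and 2 higher under total-count scaling. Markers listed for immature or non-myelinating Schwann cells had a median log2 fold change of 1.82, with 5 of 7 genes higher and 2 lower. The 2 lower were L1cam at -1.87 and Ngfr at -0.90. Most abundant was Pou3f1 with 369 ± 42.9 normalized counts in controls and 1518 ± 284 in Rnf40ΔSC nerves (SD, n = 3 each). Pou3f1 is also called Oct6, which the study uses as a marker of the promyelinating stage. Pericyte and smooth muscle markers were lower for 4 of 7 genes, or 2 of 7 under total-count scaling, led by Pdgfrb with 481 ± 36.4 against 306 ± 36.3. Fibroblast markers were lower for 5 of 7 genes with a median of -0.27, which was -0.0026 with 2 lower and 1 higher under total-count scaling, and perineurial markers were lower for 4 of 5 tested, or 2 of 5 under total-count scaling, with Tjp1 higher at 0.47. None of the 15 skeletal muscle markers passed the test, but Myh4, at -2.16, was at -5.23 and passed without Rnf40ΔSC 3 (adjusted p = 0.00842, edgeR). Of 6 neuronal markers 1 was tested, Snap25, which was higher, with 5.89 ± 1.11 normalized counts in controls and 17.2 ± 1.73 in Rnf40ΔSC nerves but did not pass by DESeq2 without a fold-change prior (adjusted p = 0.0538), and Isl1 had 0 counts in every library.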
